A study of Mus musculus with 2 samples.

Results

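The 10 genes described here belong to the mammalian circadian clock: Arntl (also called Bmal1), Clock, Per1, Per2, Per3, Cry1, Cry2, Nr1d1, Nr1d2, and the output factor Dbp. They were measured in intestinal cells of Lrrc19 KO and WT mice that the labels call epithelial, with 1 Affymetrix mouse genome array for each genotype. Smooth muscle markers were bright in both pools (Acta2 at 14996 in KO and 12549 in WT), which goes against a purely epithelial sample. Members were taken as all probe sets whose single gene symbol in the platform annotation was one of these names. This gave 23 of the 34945 probe sets that carry 1 gene symbol, and all 10 genes, of 18193 on the array, had at least 1. Each array carried RNA pooled in equal parts from 5 KO or 5 WT mice (2 males and 3 females, 6 weeks old, C57BL/6 background, kept free of specific pathogens), released from the intestine with EDTA and depleted by magnetic sorting of T cells (CD4 and CD8), B cells, macrophages, and dendritic cells. The labels name the allele only as a knockout of the Lrrc19 gene, and no source used here says which part of the gene was deleted. Pooling leaves no measure of the spread between mice, so no test or p-value is given, and every difference below compares these 2 pools only.

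The clock is a feedback loop of transcription that runs in nearly every cell, the intestinal epithelium included. CLOCK and ARNTL bind E-box elements as a pair and switch on the Per, Cry, Nr1d, and Dbp genes. PER and CRY proteins then accumulate and repress CLOCK and ARNTL, while NR1D1 and NR1D2 (REV-ERBα and REV-ERBβ) repress Arntl through response elements shared with the ROR receptors. In mouse tissues the transcripts of Per, Nr1d, and Dbp genes peak at times of day far from the peak of Arntl. No source used here gives the time of day at which the mice were killed, so genotype and time of sampling cannot be told apart.

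The elements of this loop lie in the promoters of several of the 10 genes, and 4 stretches are shown because they carry the elements through which the arms of the loop act on each other. RefSeq promoter windows (GRCm38.p6, 250 bases before to 50 after each annotated start) were found for 9 of the genes, 13 windows in all, and not for Per2. The E-box was searched as CACGTG, its variant, the E′-box, as CACGTT, the D-box bound by DBP as TTATGTAA, and the ROR and REV-ERB element as TAGGTCA or TGGGTCA, on both strands, with no match overlapping another. In these stretches, printed 5′ to 3′ on the strand of the gene and ending before its start, capitals mark the matched elements.
Per1 (chr11:69098723-69098848, + strand): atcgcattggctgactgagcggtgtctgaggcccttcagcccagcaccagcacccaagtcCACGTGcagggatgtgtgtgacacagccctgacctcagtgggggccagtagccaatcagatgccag
Cry1 (chr10:85185055-85185193, - strand): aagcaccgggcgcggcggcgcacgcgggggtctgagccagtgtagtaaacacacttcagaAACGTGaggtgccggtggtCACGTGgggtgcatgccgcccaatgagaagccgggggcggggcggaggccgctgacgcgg
Nr1d1 (chr11:98775378-98775465, - strand): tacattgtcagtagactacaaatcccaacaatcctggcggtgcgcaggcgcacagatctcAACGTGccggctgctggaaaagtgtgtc
Per3 (chr4:151044756-151044915, - strand): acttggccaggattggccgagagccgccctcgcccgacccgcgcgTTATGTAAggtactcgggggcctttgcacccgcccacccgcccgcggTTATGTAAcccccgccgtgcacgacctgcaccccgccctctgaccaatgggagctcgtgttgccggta

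Counted from the annotated start, the E-box of Per1 begins at -166, the E′-box and E-box of Cry1 at -79 and -60, and the E′-box of Nr1d1 at -28. Cry2 has an E′-box at -166, and Per3 has 2 D-boxes, at -205 and -158. A window of Arntl holds the ROR and REV-ERB element at 31, after the start, and no match to these letters lies in the windows of Clock, Nr1d2, or Dbp. Of 32851 promoter windows of the same length, 7.15% hold the E-box, 4.68% the E′-box, 0.938% the D-box, and 6.45% the ROR and REV-ERB element. A match describes letters only.

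The series as a whole was as follows. Lrrc19 had an intensity of 212 in the KO pool and 905 in the WT pool on its brighter probe set. On its other probe set it was at 20.9 in the KO pool and 391 in the WT pool. The median over probe sets was 131 on the KO array and 124 on the WT array, and 127, the median over both arrays, was taken as the floor. The deposited intensities were converted to log2, and each gene was read from its brightest probe set (highest mean over both arrays). All differences are log2 values of Lrrc19 KO minus WT. Of the 18193 genes, 12518 reached the floor in at least 1 pool. Their differences had a median of 0.014 and a robust SD of 0.27, a spread to which array noise and true differences between pools both add.

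None of the clock genes differed 2-fold or even 1.5-fold when read from its brightest probe set. Of the 10, 9 reached the floor and 1, Cry1, did not. Among all genes at or above the floor, 0.559% were at least 2-fold higher and 0.407% at least 2-fold lower in the KO pool, and 2.78% were at least 1.5-fold higher and 3.4% at least 1.5-fold lower. At such shares, none among 9 genes says little about the clock genes. The differences of the 9 genes ran from -0.052 (Cry2) to 0.50 (Per3), with a median of 0.21. In the values as deposited, 8 of the 9 were higher and 1 was lower in the KO pool, where 52.1% of all genes were higher. Values of the activators (Arntl at 0.23, Clock at 0.21) lay inside the range of the 4 Per and Cry repressors at or above the floor, from -0.052 for Cry2 to 0.50 for Per3, with a median of 0.11.

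Of the 23 probe sets, 19 were brighter in the KO pool and 4 in the WT pool, but 8 were under the floor in both. Of the 15 that reached the floor, 12 were brighter in KO and 3 in WT. Among all 20450 single-gene probe sets that did so, 51.5% were brighter in KO. The median difference was 0.13 over the 15, against 0.011 over the 20450. Among these 15, 1 probe set of Per2 was at least 1.5-fold higher in the KO pool with values under the floor raised to it, as were 2.48% of the 20450. All 12 that reached the floor in both pools differed by less than 1.5-fold.

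**Figure D1:**
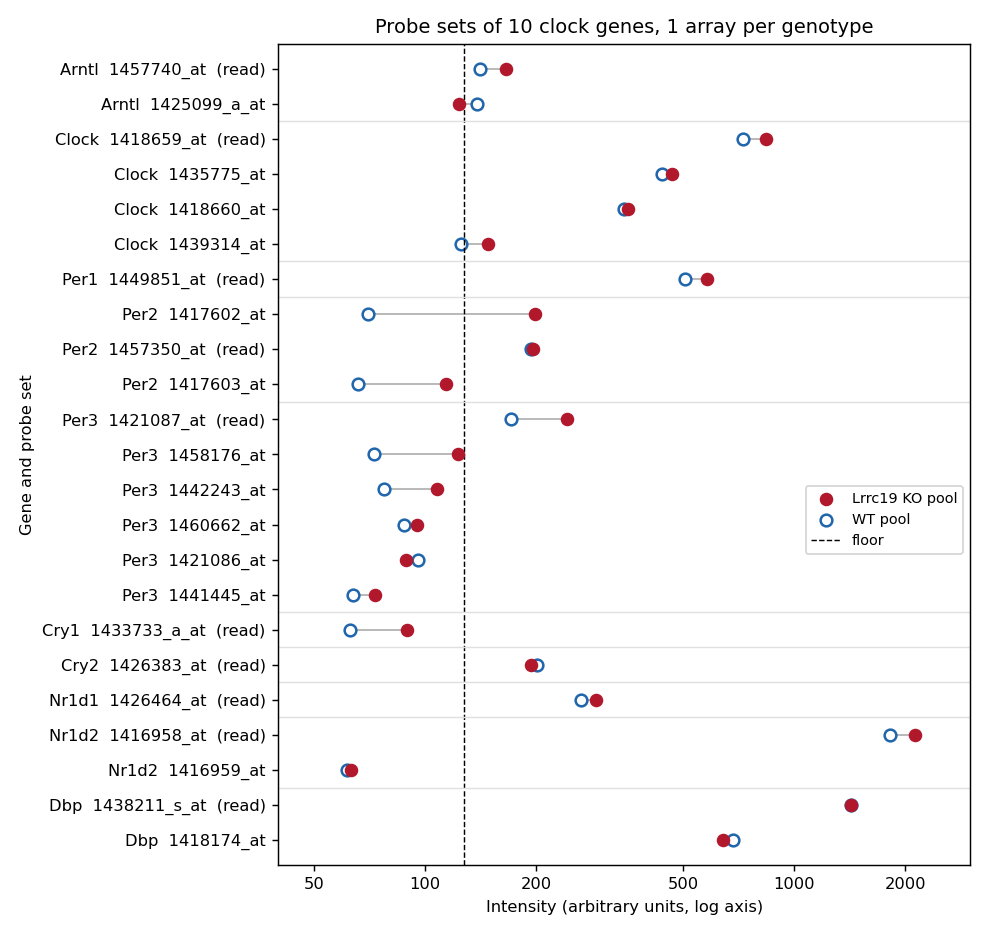
Intensity (log axis, arbitrary units) of each of the 23 probe sets of the 10 clock genes in the Lrrc19 KO pool (filled red) and the WT pool (open blue), without error bars, since each genotype had 1 array. The floor of 127 is dashed, and "read" marks the probe set that stands for the gene. The widest gap is that of the Per2 probe set 1417602_at (199 in KO and 69.9 in WT), while the other Per2 probe set that reached the floor, 1457350_at, lay at 196 and 194.

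Arntl, the partner of CLOCK and a gene without which the loop stops in mice, was close to the floor and its probe sets ran opposite ways. Probe set 1457740_at was at 166 in the KO pool and 141 in the WT pool, a difference of 0.23. Probe set 1425099_a_at was at 123 in the KO pool, under the floor, and 138 in the WT pool, a difference of -0.17. With both averaged the difference was 0.033, so no direction is given for Arntl. Such a gap between probe sets is common: with values under the floor raised to it, the gap was 0.35, and of 5007 genes with at least 2 probe sets at or above the floor, 32.2% had one at least as wide.

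Clock, which encodes the other activator, was higher in the KO pool on each of its 4 probe sets as deposited. The brightest was at 837 in the KO pool and 726 in the WT pool (0.21). The others were at 467 in KO and 437 in WT (0.096), at 355 in KO and 346 in WT (0.037), and at 148 in KO and 125 in WT, where the WT value was just under the floor (0.25). The probe sets lay close together, with a gap of 0.21 between the largest and smallest difference. In size, 45.2% of all genes at or above the floor differed at least as much as Clock.

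Per1, the Period gene known for its quick response to light and hormones, has 1 probe set. It was at 582 in the KO pool and 504 in the WT pool, a difference of 0.21 that 45% of all genes reached or passed in size. This lies within the robust SD over genes.

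Per2, a Period gene whose loss shortens and then abolishes the rhythm in mice, gave 2 different readings. Probe set 1457350_at, which stands for the gene by the rule on brightness, was at 196 in the KO pool and 194 in the WT pool (0.017). Probe set 1417602_at was at 199 in the KO pool and 69.9 in the WT pool, and the WT value was under the floor. Measured, this is a difference of 1.51, and against the floor of 127 it is at least 1.56-fold higher in the KO pool. Probe set 1417603_at was at 114 in the KO pool and 66.0 in the WT pool, which left it below the floor on both arrays, without a fold. The platform annotation derives 1417602_at and 1417603_at from 1 sequence record and 1457350_at from another, and both probe sets of the shared record were brighter in KO.

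The size of this disagreement depends on how the WT value under the floor is treated. As measured, the 2 Per2 probe sets that reached the floor lay 1.49 apart. Of the 5007 genes, 0.479% had a gap at least as wide. With the WT value raised to the floor, they lay 0.63 apart, and 8.61% of the 5007 genes had a gap at least as wide (the median gap was 0.24). These shares were computed after the values were seen and describe the arrays. Choosing the probe set brightest on either array, a choice also made after the values were seen, would have read Per2 from 1417602_at and given a measured difference of 1.51, and averaging all 3 gave 0.77. The level of Per2 in these pools therefore depends on the probe set, and which one follows the transcript was not tested.

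Per3, the Period gene that mice can lose with little effect on rhythm, had the largest difference of the 9 genes when each was read from its brightest probe set. With all probe sets averaged it was at 0.32 and Per2, at 0.77, was highest. Its brightest probe set, the single one of 6 to reach the floor, was at 242 in the KO pool and 171 in the WT pool (0.50, or 1.42-fold higher). In size, 9.45% of all genes at or above the floor differed at least as much. The 5 others were under the floor in both pools, 4 of them brighter in KO and 1 in WT, with differences from -0.11 (88.8 in KO and 95.8 in WT) to 0.75 (123 in KO and 72.8 in WT). At that level the values give no fold.

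The cryptochromes, repressors that hold CLOCK and ARNTL inactive, have 1 probe set each. Cry1 was at 89.2 in the KO pool and 62.8 in the WT pool, below the floor on both arrays, and a fold would have no meaning there. Cry2 was at 194 in the KO pool and 201 in the WT pool (-0.052), the single one of the 9 genes that was lower in KO as deposited. Per3 and Cry2, the extremes of the 9 genes, lay 0.56 apart, a gap that a constant shift between the arrays leaves unchanged.

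The REV-ERB genes encode the nuclear receptors that repress Arntl. Nr1d1, on 1 probe set, was at 289.7 in the KO pool and 265 in the WT pool (0.13). Nr1d2 was at 2127 in the KO pool and 1821 in the WT pool on its brighter probe set (0.22), and at 63.05 in KO and 61.3 in WT on the other, under the floor in both. Neither passed 1.5-fold, and the difference between them was 0.097, less than the 0.39 that the robust SD over genes gives for a difference between 2 genes.

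Dbp, an output factor of the PAR bZIP family that binds D-boxes and ranks among the most strongly rhythmic transcripts of mouse tissues, was nearly equal in the pools. Its brighter probe set was at 1421 in KO and 1420.0 in WT (0.0011), and the other at 640.5 in KO and 681 in WT (-0.088). The brighter one can match several transcripts. Of all genes at or above the floor, 99.7% differed more than or as much as the brighter one.

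The direction of these differences depended on the scaling between the arrays, which no source used here describes. With both arrays set to the same median, 6 of the 9 genes were higher and 3 were lower in the KO pool (median 0.13), and 39.3% of all genes were higher. Quantile normalization gave 7 higher and 2 lower (median 0.17), with 51.2% of all genes higher. Centring on 10 control genes gave 9 higher (median 0.30), with 65.8% of all genes higher, and raised Per3 to 0.60, past 1.5-fold. Hybridization spike-ins, transcripts of other organisms added before hybridization, were brighter in KO on all 18 of their probe sets (median 0.50), and centring on them left 1 gene higher and 8 lower (median -0.29), with 3.96% of all genes higher. Only Per3 (0.42, 0.46, 0.60, and 0.0071 by these scalings) kept a difference above 0 under all of them among the 9. Per3 was the highest of the 9 as deposited. Under a constant shift the highest gene is the last to fall below 0, so this follows from its rank and is a description only. The median of the clock genes stood above that of all genes by 0.19 as deposited and by 0.16 after quantile normalization. The 3 other scalings add a constant to every gene and so hardly touch this gap, and 9 genes of 1 loop are not independent of each other.

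**Figure D2:**
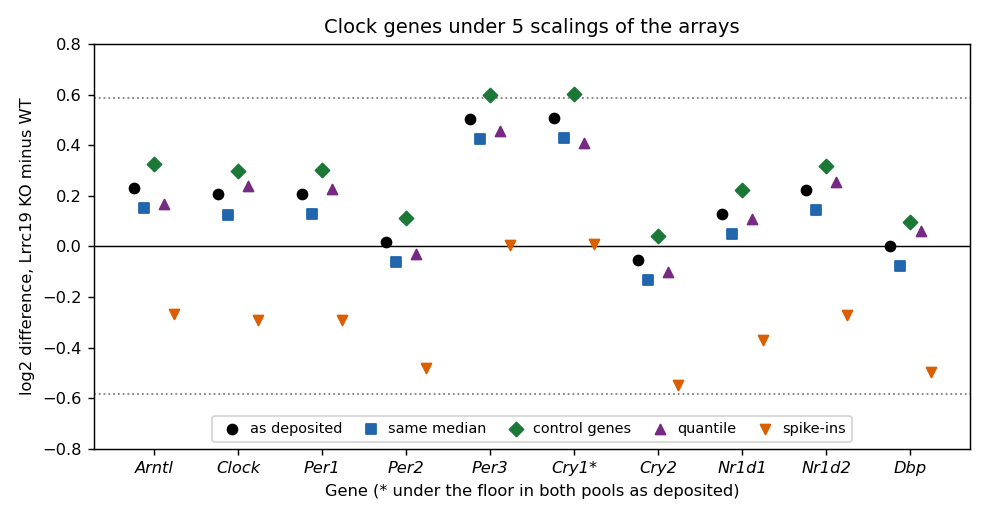
Log2 difference (Lrrc19 KO minus WT) of each clock gene, read from its brightest probe set, in the values as deposited and under 4 other scalings of the arrays. Dotted lines mark 1.5-fold, there is 1 array per genotype, and no error bar can be given. Per3 lies highest among the 9 genes at or above the floor as deposited (0.50) and after quantile normalization (0.46), the 3 other scalings shift all genes alike, and centring on the spike-ins moves Cry2 to -0.55 and Per3 to 0.0071.

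Other transcription factors of the clock were read in the same way. Of 10 measured, Rorb and Nfil3 were under the floor, and the 8 others had a median of 0.11, against 0.014 over all genes. Of the 8, 7 were higher, 1 was lower, and none was past 1.5-fold. Among all genes, 2.78% were at least 1.5-fold higher and 3.4% at least 1.5-fold lower. At such shares, none among 8 says little about these genes, and the same holds for the kinase and output lists below. The largest differences were those of Tef, a PAR bZIP factor like DBP, at 1303 in the KO pool and 932 in the WT pool (0.48), and of Bhlhe40, a repressor that competes at E-boxes, at 1860.4 in KO and 1376 in WT (0.44). A second probe set of Tef was also brighter in KO (183 in KO and 101 in WT, where the WT value was under the floor). Their closest relatives, named after the values were seen, stood lower: Hlf, the remaining PAR bZIP factor, at 386 in KO and 352 in WT (0.13), and Bhlhe41 at 426 in KO and 427 in WT (-0.0031). Tef exceeded Dbp by 0.48 and Hlf by 0.35, and Bhlhe40 exceeded Bhlhe41 by 0.44. Since Tef and Bhlhe40 were the highest of their list, these gaps are descriptions only.

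Kinases, ubiquitin ligases, and cofactors of the clock had a median of 0.039 over 9 genes, with 6 higher, 3 lower, and none past 1.5-fold. The 2 largest differences were those of Fbxw11, a ligase subunit for phosphorylated PER (4335 in KO and 3449 in WT, 0.33), and Csnk1d, the kinase CK1δ (2439 in KO and 1966 in WT, 0.31). Each of these 2 probe sets is of a kind open to more than 1 transcript, and the next brightest probe set gave -0.11 for Fbxw11 and 0.011 for Csnk1d. Fbxl21 was under the floor, and Ncor1 was not analysed here.

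Output genes that cycle in many mouse tissues had a median of 0.0073 over 8 genes, 4 higher and 4 lower, again none past 1.5-fold. Usp2, a deubiquitinase, was at 945 in KO and 709 in WT (0.42) on its brightest probe set and at 680.4 in KO and 689 in WT (-0.018) on the other. Cirbp, a cold-inducible RNA-binding protein, was at 425 in KO and 563 in WT (-0.41). Por and Rbm3 were not analysed here.

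Inducers of Per1 outside the loop were described through their other targets. Genes induced by glucocorticoids, hormones that set peripheral clocks, had a median of 0.25 over 14 genes, with 12 higher, 2 lower, and 1 past 2-fold (0.559% of all genes were, in that direction), the zinc finger factor Zbtb16 (461 in KO and 111 in WT, under the floor in WT, at least 3.62-fold higher against the floor). The probe set of Zbtb16 can match several transcripts, and another was at 195 in KO and 78.0 in WT. Of 7 genes induced through CREB and serum signals, 5 reached the floor, all 5 higher in KO, with a median of 0.38. Of these, 2 were past 1.5-fold (2.78% of all genes were, in that direction), the immediate early genes Egr1 (1104 in KO and 611 in WT, 0.85) and Fos (3980.4 in KO and 2410 in WT, 0.72). The remaining 2 were under the floor in both pools, the kinase gene Sik1 at 77.3 in KO and 91.0 in WT and the CREB relative Crem at 89.4 in KO and 84.4 in WT. The median of this list rested on the floor, being 0.082 over all 7 genes with the floor at the 25th percentile and 0.72 over 3 genes with it at the 75th. Per1, at 0.21, lay below the median of 0.38 and above that of 0.082.

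**Figure D3:**
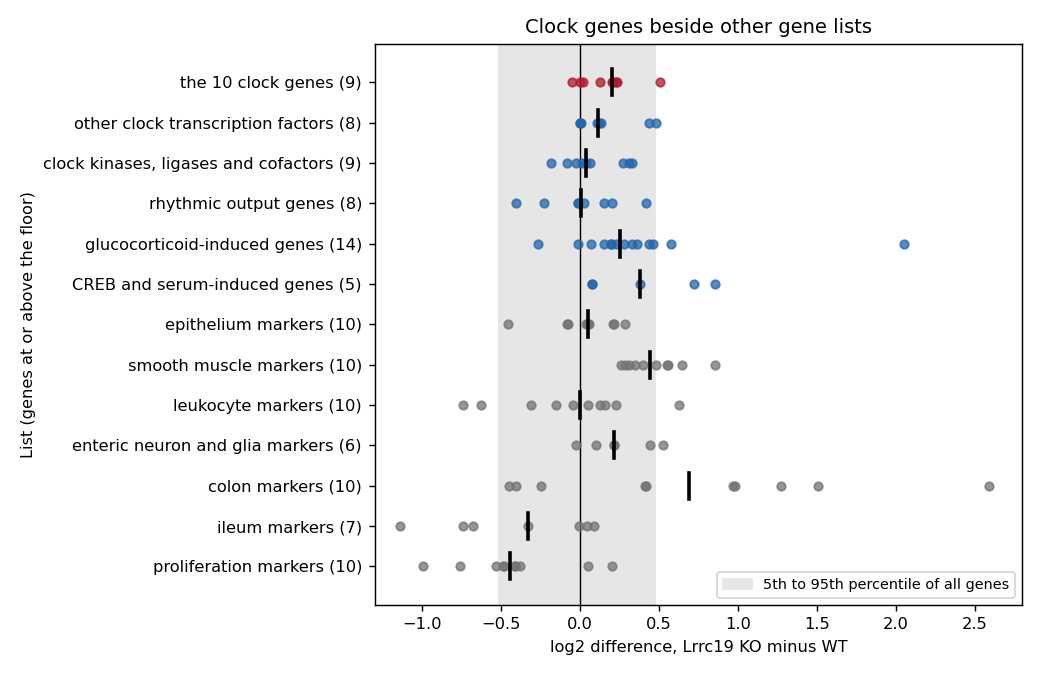
Log2 difference (Lrrc19 KO minus WT) of the genes at or above the floor in the 10 clock genes (red), in lists related to the clock (blue), and in marker lists (grey), with the number of genes in parentheses. Black ticks are medians, the shaded band runs from the 5th to the 95th percentile of all genes (-0.51 to 0.47), there is 1 array per genotype, and adipocyte markers are not plotted. Of the clock genes only Per3 (0.50) lies outside the band, and smooth muscle (0.44) and colon markers (0.69) have higher medians than the clock genes (0.21).

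Clock genes are transcribed in most cell types, and in these pooled samples a change in the mix of cells and a change of RNA per cell cannot be told apart. Epithelial markers were bright and close in the pools, with a summed intensity of 96230.3 in KO and 92941 in WT over 10 genes and a median difference of 0.050 (Krt8 at 20184 in KO and 19633 in WT, Lgals4 at 15398 in KO and 16318 in WT). Smooth muscle markers were higher in KO for all 10 genes, with sums of 80204 in KO and 60220.3 in WT and a median of 0.44 (Acta2 as given above, Tagln at 12771 in KO and 10290 in WT). Markers of enteric neurons and glia had a median of 0.21 over the 6 of 8 measured genes that reached the floor (sums over all 8 of 1762 in KO and 1509 in WT, Sox10 at 325 in KO and 280 in WT, Uchl1 at 291 in KO and 271 in WT). Leukocyte markers had a median of 0.0030 over 10 of 11 genes, 5 higher and 5 lower in KO (sums over all 11 of 6022 in KO and 6777 in WT, Lyz2 at 1883 in KO and 2330 in WT, Csf1r at 1240 in KO and 1376 in WT).

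Adipocyte markers had a median of -0.89 over 4 of 5 genes, 1 higher and 3 lower in KO (sums of 1135 in KO and 2199 in WT, Fabp4 at 648 in KO and 1372 in WT, Cidec at 304 in KO and 276 in WT). Colon markers had a median of 0.69 over 10 of 11 genes (sums of 58450.3 in KO and 52212 in WT, Car1 at 18909 in KO and 22420.1 in WT, Car4 at 8359 in KO and 6274 in WT). The list of ileum markers had a median of -0.33 over 7 of 9 genes, with Nr1h4 at 945 in KO and 916 in WT. Most of its summed intensity came from Lypd8 (21369 in KO and 21501 in WT), a gene known chiefly from the large intestine. Without Lypd8 the median was -0.50 over 6 of 8 genes, 2 higher and 4 lower, with sums of 2398 in KO and 3096 in WT. The ileal bile acid carrier Fabp6 was dim, at 151 in KO and 251 in WT. Proliferation markers had a median of -0.45 over 10 genes, 2 higher and 8 lower in KO (sums of 7592 in KO and 9830 in WT, Pcna at 2053 in KO and 2862 in WT, Mki67, 1 of the 2 higher, at 1440 in KO and 1252 in WT). No marker was listed at 0 in either pool, the dimmest being Adipoq at 24.4 in KO and 313 in WT. The part of these shifts, and of the spike-in offset, in the differences of the clock genes was not tested.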

How the data were processed

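The deposited values are probe set intensities on a linear scale, 1 per probe set and array, for 45101 probe sets. RMA is named, without a version, in the submitters' processing notes, but the authors' values were neither log2 values nor equally distributed between the arrays, and no source used here gives the scaling. Intensities below 1 were raised to 1 and log2 was taken with Python 3.11.15 (numpy 2.4.6, pandas 2.3.3). The 64 control probe sets were left out, as were 932 with several gene symbols and 9160 unnamed here. Symbols were updated by gene ID from RefSeq (GRCm38.p6), with 34741 of 34945 single-gene probe sets matched. No coordinates are given for probe sets. A call was a difference of at least 2-fold, with 1.5-fold as a looser call, and the code was tested on simulated data. Named genes were the 10 members, the members of each related list past 1.5-fold or else its 2 largest differences, and the 2 brightest of each marker list. Alternatives covered the scaling, the probe set, and the floor. The members and lists were chosen with earlier results of these data known. With 1 array per genotype, the number of arrays limits the precision.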

Additional observations from a re-analysis of the deposited data

How the results depend on the processing

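Of 217 values recomputed under other settings, 203 stayed and 14 moved. A difference stayed if it kept its side of 2-fold and changed by no more than the robust SD over genes. A count stayed if it was unchanged. Setting the arrays to the same median or centring on the control genes shifted every gene by -0.080 or 0.094. Both are less than the robust SD, so no single gene could move there. Genes with 1 probe set could not change with the choice of probe set. The 203 is therefore no measure of how firm the values are. None of the differences had passed 2-fold at the outset, and 15 of the recomputed ones, 14 of them under planned settings, had the opposite sign to the value reported. These were values of Per2, Dbp, and Cry2 (from -0.088 to 0.042), of the kinase, rhythmic output, epithelial, and leukocyte lists (from -0.20 to -0.0012), and the clock genes' median with the spike-ins. Single genes and the other lists centred on the spike-ins were not among the 217. By that scaling Arntl (-0.27), Clock (-0.29), Per1 (-0.29), Per2 (-0.48), Nr1d1 (-0.37), Nr1d2 (-0.27), and Dbp (-0.50) also changed sign. The count of clock genes past 2-fold, 0, became 1 (Per2) with the probe set brightest on either array, a setting chosen after the data were seen, which put Per2 at 1.51 as measured, with its WT value under the floor. The count past 1.5-fold, 0, became 1 with this setting, 1 with the mean over all probe sets (Per2 at 0.77), and 1 with the control genes (Per3). The median of the clock genes stayed between 0.13 and 0.30 under the planned settings and was -0.29 after centring on the spike-ins, also chosen after the data were seen. With lower values raised to the floor, Cry1 was at 0.00. The median of the CREB and serum list was 0.72 with the floor at the 75th percentile and 0.082 at the 25th, that of the colon list 0.42 under both, and that of the adipocyte list -1.08 at the 75th percentile and -0.61 with probe sets averaged. With the floor at the 75th percentile, genes under it gave no value, which left Clock, Per1, Nr1d2, and Dbp. The low intensity of Per2, Per3, Cry1, Cry2, Arntl, and Nr1d1 limits what can be said of them.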
